A study of Mus musculus with 9 samples.

Results

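The genes described here serve sugar absorption and gluconeogenesis and were taken by name: Pck1, G6pc, Fbp1, Slc2a2, Slc2a5, Slc5a1, Khk, Sis and Treh. All 9 had 1 probe set each among the 24011 named genes of the arrays, and 7 of the 9 lay above a level filter set at the 30th percentile of all genes (a log2 level of 5.28). G6pc and Fbp1 lay under it. Total RNA was taken from the large intestine of C57BL/6 mice that carried a doxycycline-inducible short hairpin RNA together with rtTA, the activator that doxycycline switches on. The groups were DHX9-1271 (hairpin DHX9.1271, 3 arrays) and DHX9-837 (hairpin DHX9.837, 3 arrays), both directed at the helicase gene Dhx9, and Control (FLuc.1309, a hairpin against firefly luciferase, 3 arrays). Mice of all 3 groups drank doxycycline at 1 mg/ml with 5% sucrose for 14 days from 4 weeks of age, so the levels below are those of sucrose-fed mice and no array shows the level without sucrose. The sources used here do not give the cells in which rtTA was made, the number of founder lines or any pooling of animals. The p-values measure only the spread between these samples.

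Dietary sucrose is split at the brush border by sucrase-isomaltase (Sis) and trehalose by trehalase (Treh). Glucose then enters the absorptive cell with sodium through SGLT1 (Slc5a1), fructose enters through GLUT5 (Slc2a5), and GLUT2 (Slc2a2) carries both sugars out towards the blood. Ketohexokinase (Khk) phosphorylates fructose, and phosphoenolpyruvate carboxykinase (Pck1), fructose-1,6-bisphosphatase (Fbp1) and glucose-6-phosphatase (G6pc) catalyse the steps by which cells make glucose from smaller precursors. In mice this machinery is best known from the small intestine, the liver and the kidney, and Pck1 also serves glyceride synthesis in fat.

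Of the 7 tested members, 1 was called (limma adjusted p under 0.05), and it was Pck1 in each comparison. Over all 16808 genes tested, 4.41% were called with DHX9-1271 against control, 15.6% with DHX9-837, 13.5% with both hairpins together and 1.90% between the hairpins. Pck1 was lower in DHX9-1271 and DHX9-837 than in control, and lower in DHX9-837 than in DHX9-1271. Sis had the widest range of the 9, a 58.2-fold span between arrays that crossed all 3 groups. The promoters of these 2 genes are shown because the results turn on them, from RefSeq on build GRCm38.p6 (250 bases before to 50 after the gene start, 5′ to 3′, on the strand of the gene). Promoters of all 9 genes were found there, and gene spans below are of the same build. For Khk and Fbp1 the window was placed at a start other than the outer end of the span given below. In the Pck1 promoter (chr2:173152823-173153122, plus strand) the capitals mark the 6 letters ACGTCA of a cAMP response element, 91 bases before the start. In the Sis promoter (chr3:72967814-72968113, minus strand) they mark an HNF1 element (172 bases before the start) and 4 matches to the CDX element TTTAT (138, 133, 50 and 43 bases before the start, the first 2 side by side).
Pck1: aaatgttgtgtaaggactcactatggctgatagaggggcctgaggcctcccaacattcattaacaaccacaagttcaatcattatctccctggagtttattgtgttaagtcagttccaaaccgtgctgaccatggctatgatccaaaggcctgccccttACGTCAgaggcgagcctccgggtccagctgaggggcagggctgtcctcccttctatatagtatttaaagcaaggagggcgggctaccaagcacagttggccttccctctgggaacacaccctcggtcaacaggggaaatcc
Sis: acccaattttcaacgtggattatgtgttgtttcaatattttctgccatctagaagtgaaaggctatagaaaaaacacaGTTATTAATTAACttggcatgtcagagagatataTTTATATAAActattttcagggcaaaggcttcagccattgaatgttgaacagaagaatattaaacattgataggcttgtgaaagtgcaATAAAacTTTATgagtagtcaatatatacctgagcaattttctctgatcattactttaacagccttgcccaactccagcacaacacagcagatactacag
Both strands were searched for motifs known from genes of this kind. Among 32851 promoter windows of the same length, ACGTCA was found in 7.51%, TTTAT in 40.0% and the HNF1 element in 0.0396%. The ACGTCA letters were found in the window of Pck1 and of no other of the 9 genes, and the HNF1 letters in that of Sis alone. TTTAT also stood once in the windows of Pck1 (left in lower case) and G6pc, and the E-box CACGTG, found in 7.15% of windows, stood once in those of Slc5a1 and Khk. These matches describe the letters and are not evidence of binding.

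The arrays were checked first for the hairpin target and for the labelled tissue. Dhx9 stood at log2 levels of 8.22 ± 0.0445 in DHX9-1271 and 8.20 ± 0.0173 in DHX9-837, against 9.24 ± 0.0723 in control (SD, n = 3 arrays each), which is 49.6% and 48.8% of the control signal. Array medians lay between 6.24 and 6.28. Colonic genes were high in every array, with log2 levels of 13.03 to 13.15 for the carbonic anhydrase gene Car1 and 12.57 to 12.83 for the mucin gene Muc2. Hoxb13 and Hoxd13, homeobox genes of the distal colon, lay near the level filter, at 4.75 to 5.56 and 4.82 to 5.39. The mean log2 level of 20 small intestine markers ran from 7.02 to 7.40 in DHX9-1271, from 7.25 to 8.52 in DHX9-837 and from 7.30 to 8.05 in control. That mean was highest in DHX9-837 replicate 3, followed by control replicate 2 and DHX9-837 replicate 1.

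**Figure D1:**
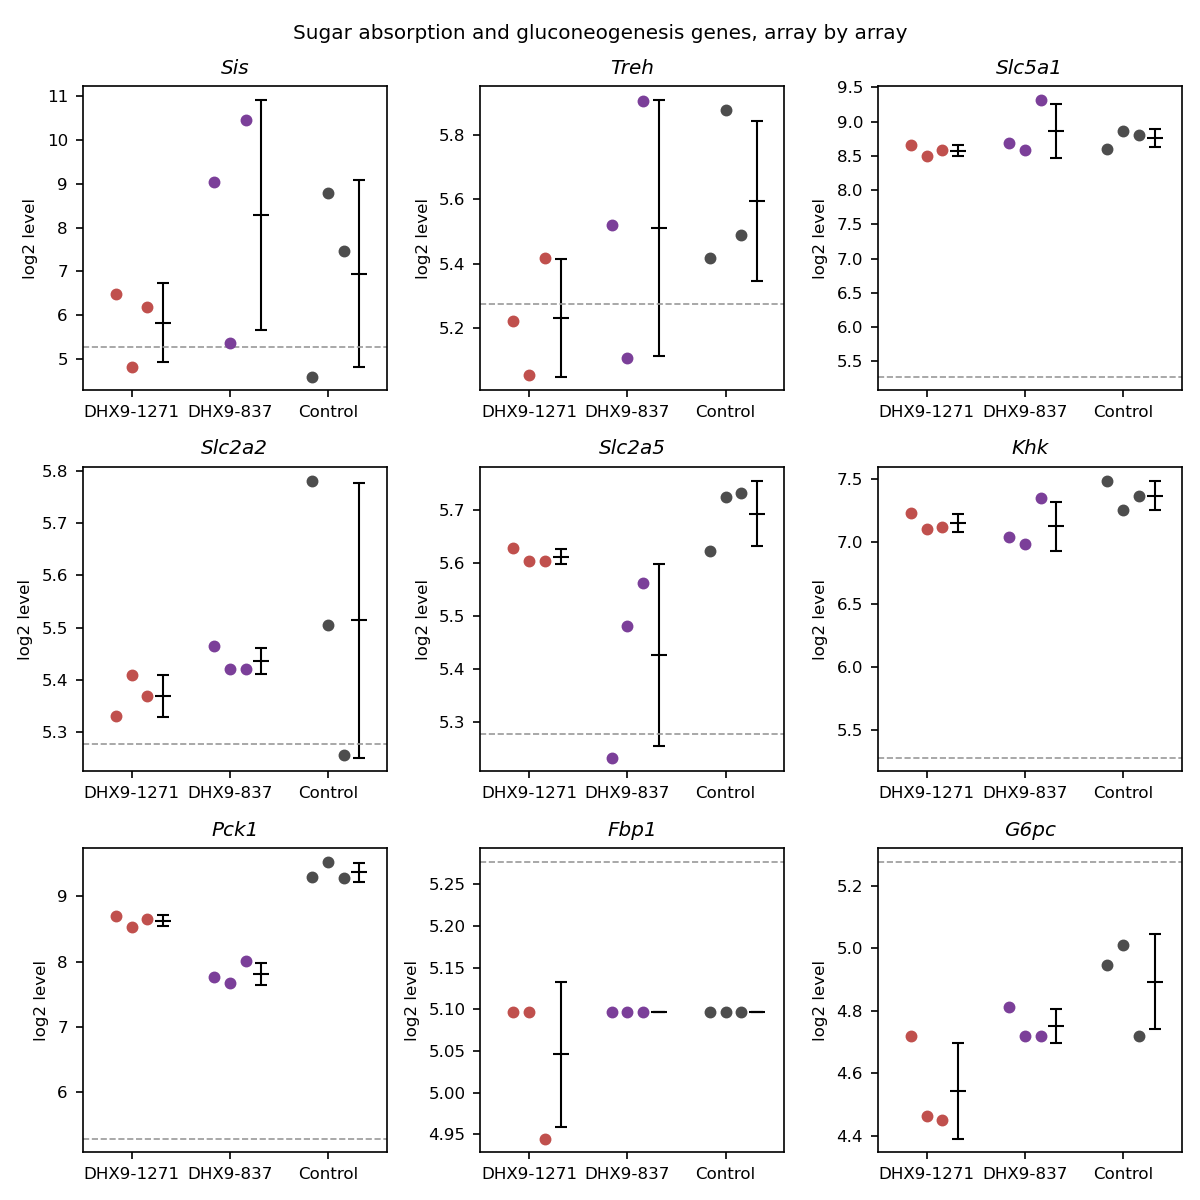
Log2 levels of the 9 sugar genes on each array (points), with the mean and SD of 3 arrays beside them and the level filter of 5.28 as a dashed line; each panel has its own vertical scale. Pck1 forms 3 separate tiers, with DHX9-837 lowest and control highest, whereas Sis spreads from 4.60 to 10.46 across arrays of all groups.

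Pck1 (Entrez Gene 18534, chr2:173153073-173159274), whose enzyme turns oxaloacetate into phosphoenolpyruvate, fell with both hairpins. Its log2 level was 8.70, 8.53 and 8.65 in DHX9-1271, and 7.76, 7.67 and 8.0 in DHX9-837, against 9.30, 9.53 and 9.28 in control. No array of one group reached into the range of another. DHX9-1271 arrays kept 59.9% of the control signal (log2 fold -0.74, SE 0.1, 95% interval -0.97 to -0.51, limma adjusted p = 0.00827). DHX9-837 arrays kept 33.9% (log2 fold -1.56, SE 0.1, 95% interval -1.79 to -1.33, limma adjusted p = 6.29e-05). The 2 comparisons share the control arrays, so the hairpins were also compared directly. Pck1 was lower in DHX9-837 than in DHX9-1271, at 56.7% of its level (log2 fold -0.82, SE 0.1, limma adjusted p = 0.0103), while Dhx9 differed between these groups by -0.02 (95% interval -0.14 to 0.09, limma adjusted p = 0.908). The call between the hairpins ended without DHX9-1271 replicate 3, where the log2 fold was -0.81 (limma adjusted p = 0.0615). For the knockdown arrays together against control, the Pck1 log2 fold was -1.15 (SE 0.0869, limma adjusted p = 0.000222), and an exact two-sided permutation of arrays gave p = 0.0238. The same exact test gave p = 0.1 for each pair of groups, the smallest that 3 arrays against 3 allow.

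A count of 1 member of 7 is a share of 14.3%, near the background with DHX9-837 and with both hairpins together. Falls made up 1.58%, 6.91%, 5.33% and 1.21% of the genes tested with DHX9-1271, with DHX9-837, with both hairpins and between the hairpins. The median log2 fold of the 7 members was -0.22 with DHX9-1271, -0.08 with DHX9-837, -0.17 with both hairpins and 0.07 between them, against 0.0057, -0.0012, 0.0011 and -0.0040 over all genes in the same order.

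**Figure D2:**
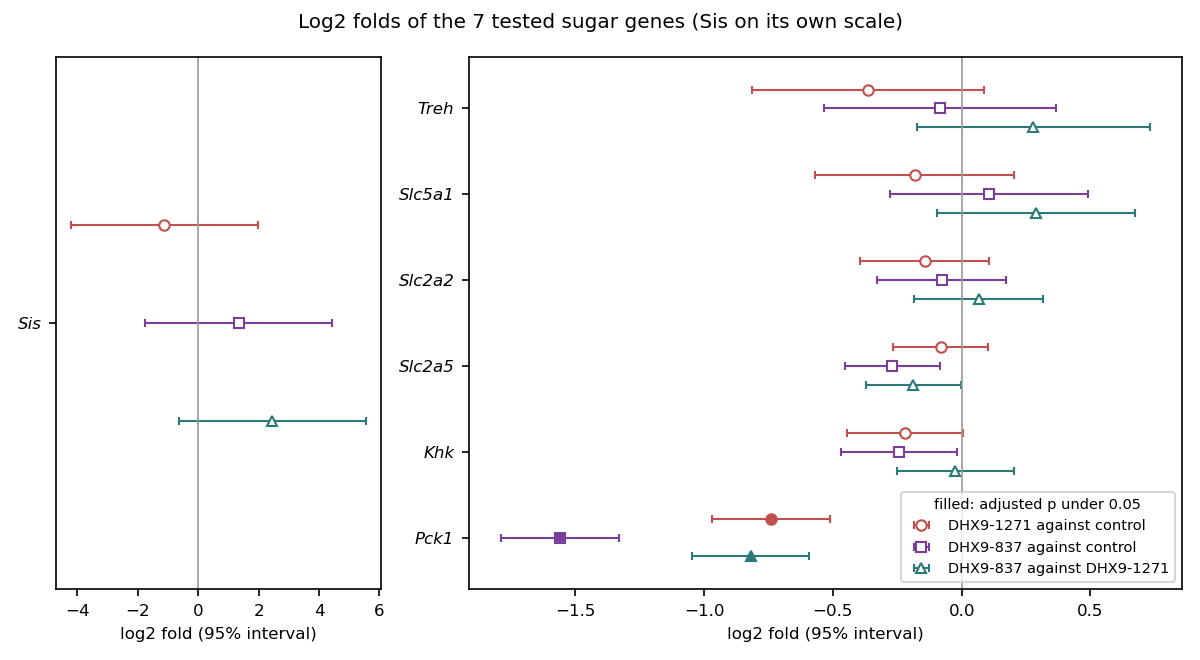
Log2 folds of the 7 tested sugar genes with 95% intervals from the limma fit, for each hairpin against control and for DHX9-837 against DHX9-1271; filled symbols have an adjusted p under 0.05 and Sis has its own horizontal scale. Only the Pck1 symbols are filled, at -0.74, -1.56 and -0.82, and the Sis intervals are the widest.

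The other 2 gluconeogenic members gave little signal. G6pc (chr11:101367716-101377903) had log2 levels of 4.72, 4.46 and 4.45 in DHX9-1271 and 4.81, 4.72 and 4.72 in DHX9-837, against 4.95, 5.01 and 4.72 in control. The value 4.72 recurred in 4 of the 9 arrays, in all 3 groups. Fbp1 (chr13:62864753-62888298) was listed at 5.10 in 8 of 9 arrays and at 4.94 in DHX9-1271 replicate 3. Neither was tested in the main fit, and with no level filter neither was called in any of the 4 comparisons (lowest limma adjusted p = 0.127, for G6pc in both hairpins together). Signals this low and this often tied give no usable size of change.

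Sis (chr3:72888557-72967863), the disaccharidase that splits sucrose, varied widely within groups. It stood at 6.49, 4.81 and 6.2 in DHX9-1271 and at 9.04, 5.37 and 10.46 in DHX9-837, against 4.60, 8.79 and 7.46 in control. The highest array was 34.1-fold above the lowest within DHX9-837, 3.20-fold within DHX9-1271 and 18.3-fold within control. The groups overlapped, and the log2 fold was -1.12 with DHX9-1271 (95% interval -4.21 to 1.97, limma adjusted p = 0.691) and 1.34 with DHX9-837 (95% interval -1.75 to 4.43, limma adjusted p = 0.564). These intervals leave room for a change of many-fold in either direction. Between the hairpins the log2 fold was 2.46 (95% interval -0.63 to 5.55, limma adjusted p = 0.475).

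Slc5a1 (chr5:33104219-33162699), the sodium-coupled glucose carrier, lay between 8.49 and 8.86 on every array but 1. Its log2 level was 8.66, 8.49 and 8.58 in DHX9-1271 and 8.69, 8.59 and 9.32 in DHX9-837, against 8.60, 8.86 and 8.81 in control. The highest array, DHX9-837 replicate 3, was also the highest for Sis. The log2 fold was -0.18 with DHX9-1271 (95% interval -0.57 to 0.20) and 0.11 with DHX9-837 (95% interval -0.28 to 0.49), or -0.12 with DHX9-837 when replicate 3 was left out. Treh (chr9:44673233-44686305), the brush-border enzyme for trehalose, had 5.22, 5.06 and 5.42 in DHX9-1271 and 5.52, 5.11 and 5.90 in DHX9-837, against 5.42, 5.88 and 5.49 in control. DHX9-837 replicate 3 and control replicate 2 were the 2 highest arrays, and the groups overlapped. Its log2 folds were -0.36 with DHX9-1271 (95% interval -0.81 to 0.09) and -0.08 with DHX9-837 (95% interval -0.54 to 0.37), and none of the 4 comparisons called it.

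The exit carrier Slc2a2 (chr3:28697903-28728361) lay close to the level filter. Its log2 level was 5.33, 5.41 and 5.37 in DHX9-1271 and 5.47, 5.42 and 5.42 in DHX9-837, against 5.78, 5.50 and 5.26 in control. The control arrays spanned both knockdown groups, and the log2 fold for both hairpins against control was -0.11 (95% interval -0.33 to 0.11, limma adjusted p = 0.487). Every DHX9-837 array was above every DHX9-1271 array, by a mean of 0.07 that was not called (limma adjusted p = 0.859).

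Both members of fructose handling had lower means with each hairpin and were not called. Slc2a5 (chr4:150119344-150144168), the fructose carrier, had log2 levels of 5.63, 5.60 and 5.60 in DHX9-1271 and 5.23, 5.48 and 5.56 in DHX9-837, against 5.62, 5.73 and 5.73 in control. All DHX9-837 arrays lay below all control arrays, whereas DHX9-1271 overlapped control. The log2 fold was -0.08 with DHX9-1271 (limma adjusted p = 0.616) and -0.27 with DHX9-837 (95% interval -0.45 to -0.09, limma adjusted p = 0.0558). Khk (chr5:30921436-30931248), the first enzyme of fructose breakdown, had 7.23, 7.10 and 7.12 in DHX9-1271 and 7.04, 6.98 and 7.35 in DHX9-837, against 7.49, 7.25 and 7.36 in control. DHX9-1271 arrays were all below control, while DHX9-837 replicate 3 lay inside the control range. The Khk log2 fold was -0.22 with DHX9-1271 (limma adjusted p = 0.257) and -0.24 with DHX9-837 (limma adjusted p = 0.137). Without DHX9-837 replicate 3 both genes were called lower in DHX9-837, with log2 folds of -0.34 for Slc2a5 (limma adjusted p = 0.0324) and -0.36 for Khk (limma adjusted p = 0.0253). That array had the highest level of both genes in its group. In that fit 1858 of the 16808 genes tested were called, 916 of them lower. With the small intestine marker mean as a covariate and all arrays kept, neither was called with DHX9-837 (limma adjusted p = 0.0658 and 0.11). Arrays did not overlap with control for 2 of 7 members with DHX9-1271 (Pck1 and Khk) and 2 of 7 with DHX9-837 (Pck1 and Slc2a5), all of them lower, against 25.5% and 31.4% of all genes tested in either direction. With both hairpins together it was 1 of 7 (Pck1), against 17.5%. Between the hairpins it was 3 of 7 (Pck1 and Slc2a5 lower and Slc2a2 higher in DHX9-837), against 21.9%.

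The spread of Sis, Slc5a1 and Treh went with that of other genes of the small intestine. Over the 9 arrays the mean of the 20 small intestine markers, none of them a member, correlated with Sis at a Pearson r of 0.968 (exact permutation p = 5.79e-05, adjusted p = 0.000298) and a Spearman rho of 0.933 (exact permutation p = 0.00075). For Slc5a1 r was 0.915 (exact permutation p = 0.00084, adjusted p = 0.00252) with a rho of 0.933 (exact permutation p = 0.00075), and for Treh r was 0.913 (exact permutation p = 6.61e-05, adjusted p = 0.000298) with a rho of 0.946 (exact permutation p = 0.000375). Without the 2 arrays farthest from the median marker mean, DHX9-837 replicate 3 and control replicate 2, r was 0.944, 0.760 and 0.794 for Sis, Slc5a1 and Treh. In all, 9 relations were computed, and those of the other 6 members did not pass (r from -0.131 for Slc2a5 to 0.428 for G6pc). With each group's mean taken out, r was 0.966 for Sis, 0.884 for Slc5a1 and 0.962 for Treh. The relations thus held within groups. Values with group means taken out are not fully independent of each other. The 4 arrays of highest marker mean were of DHX9-837 and control, and the part of small intestine tissue in the Sis, Slc5a1 and Treh levels was not tested beyond these values.

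Pck1 behaved in another way. Across all 9 arrays its relation to the marker mean did not pass (r = -0.111, rho = 0.167, exact permutation p = 0.771 and p = 0.678). Once the group means were taken out r was 0.912 and rho 0.950. No p-value is given for them, because permuting all 9 arrays would mix values centred within separate groups. Without the 2 arrays whose centred marker mean lay farthest from the median (DHX9-837 replicates 2 and 3), r was 0.866. Within each group the array with the highest marker mean also had the most Pck1. The Pck1 range within a group was 0.17 in DHX9-1271 and 0.33 in DHX9-837, against 0.25 in control. With the marker mean as a covariate the Pck1 log2 folds were -0.63 for DHX9-1271 (SE 0.0623, limma adjusted p = 0.00455) and -1.63 for DHX9-837 (SE 0.0591, limma adjusted p = 1.46e-05), and -1.0 between the hairpins (SE 0.0704, limma adjusted p = 0.00507). The Pck1 calls were thus kept in that fit, with smaller errors. For Sis the SE of the DHX9-837 fold was 0.388 with the covariate and 1.36 without it. The Sis log2 folds with it were 0.63 with DHX9-1271 and 0.24 with DHX9-837, neither of them called.

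**Figure D3:**
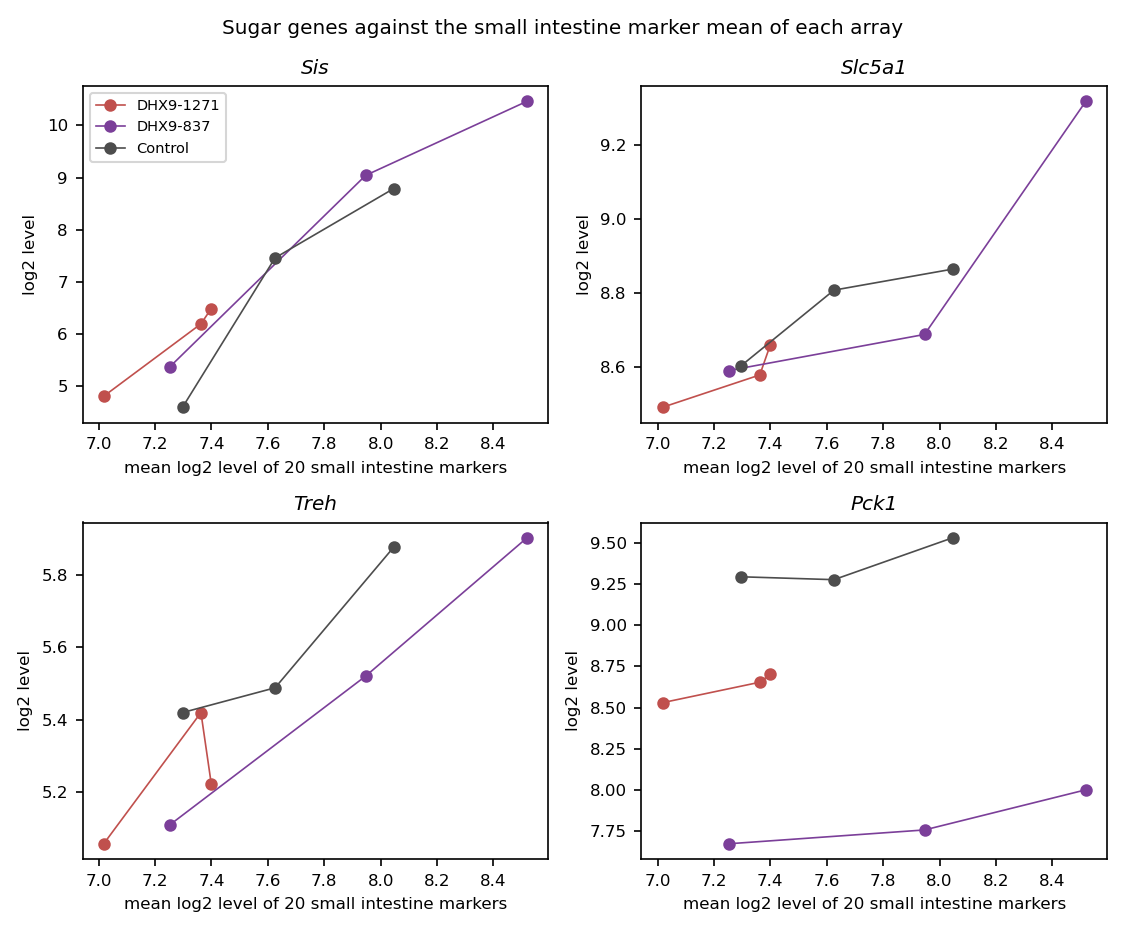
Log2 levels of Sis, Slc5a1, Treh and Pck1 against the mean log2 level of 20 small intestine markers on the same array; points are arrays, and lines join the arrays of 1 group in order of the marker mean. Sis rises with the marker mean along 1 common path (r = 0.968), whereas Pck1 lies on 3 separate levels, with control on top and DHX9-837 at the bottom.

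Among all tested genes, those most like Sis over the 9 arrays by Pearson correlation were Fabp6 (r = 0.989), Anpep (0.988), Defa39 (0.988), Slc13a1 (0.988) and Defa3 (0.987). Fabp6 and Anpep are also among the 20 small intestine markers, so their likeness to Sis is not separate from the marker correlation. Fabp6 encodes the ileal bile acid binding protein, Anpep a brush-border aminopeptidase, Slc13a1 a sulfate carrier, and Defa39 and Defa3 Paneth cell defensins, whose near-identical copies make single values uncertain. Fabp6 had log2 levels of 6.29, 4.62 and 5.96 in DHX9-1271 and 9.01, 5.05 and 10.45 in DHX9-837, against 5.22, 9.05 and 7.69 in control. It was high in the same 3 arrays as Sis, which follows from its choice by likeness to Sis. Slc5a1 ranked 72nd and Treh 77th among tested genes by likeness to Sis, with r of 0.844 and 0.838. The genes most like Pck1 were Apol10a (r = 0.989), Cyld (0.987), Iqgap2 (0.987), Marveld3 (0.985) and Fahd1 (0.985). Apol10a, of the apolipoprotein L family, had 9.30, 8.99 and 9.27 in DHX9-1271 and 8.44, 8.47 and 8.73 in DHX9-837, against 9.95, 10.17 and 10.04 in control. Fahd1, which encodes a mitochondrial enzyme that breaks down oxaloacetate, had 7.21, 7.14 and 7.24 in DHX9-1271 and 6.59, 6.38 and 6.55 in DHX9-837, against 7.69, 7.68 and 7.56 in control. Both genes formed the same 3 separate tiers as Pck1, which follows from their choice by likeness to Pck1 over these same arrays. Of the other members, Slc2a5 was the most like Pck1 (r = 0.811) and Sis the least (r = -0.170). These correlations are descriptions over 9 arrays that fall into 3 groups.

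Tissue markers differed between the groups too. The mean of 15 colon markers was 9.30 to 9.36 in DHX9-1271 and 9.06 to 9.15 in DHX9-837, against 9.40 to 9.46 in control, the same order of groups as for Pck1. Of the 13 colon markers tested, 5 fell in both hairpins together and 0 rose (13.5% of all genes called, 5.33% called lower), among them the sugar phosphate carrier gene Slc37a2 (log2 fold -0.85) and the chloride-bicarbonate exchanger gene Slc26a3 (-0.45). With DHX9-837 alone 8 fell, against 6.91% of all genes called lower, and with DHX9-1271 alone 2 fell, against 1.58%. Between the hairpins 5 were lower in DHX9-837, against 1.21%. In each of these comparisons 0 colon markers rose. The mean of 10 adipocyte markers was 6.95 to 7.15 in DHX9-1271 and 7.51 to 7.68 in DHX9-837, against 7.10 to 7.47 in control. It was thus highest in DHX9-837 and overlapped control in DHX9-1271. Of 8 adipocyte markers tested, 1 rose in both hairpins together (Lpl, log2 fold 0.58) and 1 fell (the hormone-sensitive lipase gene Lipe, -0.27), against 13.5% of all genes called. The Lipe call ended without control replicate 1 (limma adjusted p = 0.052) or 3 (limma adjusted p = 0.0513). With DHX9-837 alone 2 rose (Lpl and Cidec) and 1 fell (Lipe), against 15.6% of all genes, and with DHX9-1271 alone 0 rose and 1 fell (Car3), against 4.41%. The adiponectin gene Adipoq, under the level filter, ranged from 4.16 to 6.08. Of 10 hepatocyte and kidney markers 4 passed the filter (Cps1, Umod, Slc34a1 and Aqp2). Of these, 0 were called by limma with both hairpins together, against 13.5% of all genes called. At an unadjusted p under 0.05 the count there was also 0, and the share of all genes at that threshold is not given here. Cps1 ran from 6.88 to 9.33 and was highest in DHX9-837 replicate 3. The albumin gene Alb, under the level filter, stayed at 4.92 to 5.42. Absorptive epithelium markers averaged 11.16 to 11.23 in DHX9-1271 and 11.22 to 11.27 in DHX9-837, against 11.16 to 11.20 in control, with the keratin gene Krt18 up (log2 fold 0.66) and the membrane protein gene Mall down (-0.42) of 10 tested in both hairpins together, against 13.5% of all genes called. Of 18 small intestine markers tested, 0 rose and 2 fell by limma with both hairpins together, against 13.5% of all genes called. The 2 were Alpi (log2 fold -0.66) and Fabp2 (-0.23), and the median log2 fold was -0.12. The Alpi call ended without control replicate 2 (limma adjusted p = 0.0529) and the Fabp2 call without any array but DHX9-837 replicate 3 (limma adjusted p = 0.0667 to 0.118). With DHX9-837 alone 1 rose (Ada, log2 fold 0.94, limma adjusted p = 0.041) and 1 fell (Alpi), against 15.6% of all genes. With DHX9-1271 alone 0 rose and 1 fell (Alpi), against 4.41%. Between the hairpins 0 were called, against 1.90%. The median log2 fold of these markers was -0.24 with DHX9-1271, 0.22 with DHX9-837 and 0.47 between the hairpins. The part of these shifts in the Pck1 result was not tested. In RNA of whole tissue, fewer cells of a type and less RNA per cell cannot be told apart.

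Other genes around the gluconeogenic steps changed in both directions. The lists below were chosen with earlier results of these data known. Of 23 tested enzymes and carriers that make or feed gluconeogenic precursors, 7 rose and 3 fell in both hairpins against control (13.5% of all genes called), with a median log2 fold of 0.06 against 0.00 for all genes. The falls were Fbp2, Pcx and Slc25a10. Fbp2, the second fructose-1,6-bisphosphatase gene, fell by 0.28 (SE 0.0384, limma adjusted p = 0.00255), with all knockdown arrays below control. Pcx, which encodes pyruvate carboxylase and supplies oxaloacetate to Pck1, fell by 0.35 (SE 0.0656, limma adjusted p = 0.00954). Slc25a10, the mitochondrial dicarboxylate carrier, fell with DHX9-837 (log2 fold -0.58) and had a log2 fold of 0.05 with DHX9-1271, which was not called. That difference between the hairpins was itself called (log2 fold -0.62, limma adjusted p = 0.00194).

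The rises in that list were Got1, Got2, Gpd2, Mdh1, Mdh2, Glul and Pck2. The cytosolic aspartate aminotransferase gene Got1 rose most (log2 fold 0.73, SE 0.0499, limma adjusted p = 0.000136), and its mitochondrial counterpart Got2 rose by 0.40. The malate dehydrogenase genes Mdh1 (0.22) and Mdh2 (0.27), the glycerol phosphate dehydrogenase gene Gpd2 (0.39) and the glutamine synthetase gene Glul (0.28) rose too. Pck2, which encodes the mitochondrial form of the enzyme made by Pck1, rose by 0.21 (SE 0.0455, limma adjusted p = 0.0169), opposite to Pck1, and that call ended without control replicate 1 (limma adjusted p = 0.0658). Got1 rose more with DHX9-837 (0.93) than with DHX9-1271 (0.52), and the difference of 0.40 was called (limma adjusted p = 0.0162). That call ended without any 1 of the DHX9-1271 arrays or without DHX9-837 replicate 1 (limma adjusted p = 0.0575 to 0.0856). In the whole list, 5 rose and 2 fell with DHX9-1271 alone, against 4.41% of all genes called. With DHX9-837 alone 7 rose and 4 fell, against 15.6%. Mdh1 and Glul were not called with DHX9-1271 (limma adjusted p = 0.0555 and 0.0851).

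**Figure D4:**
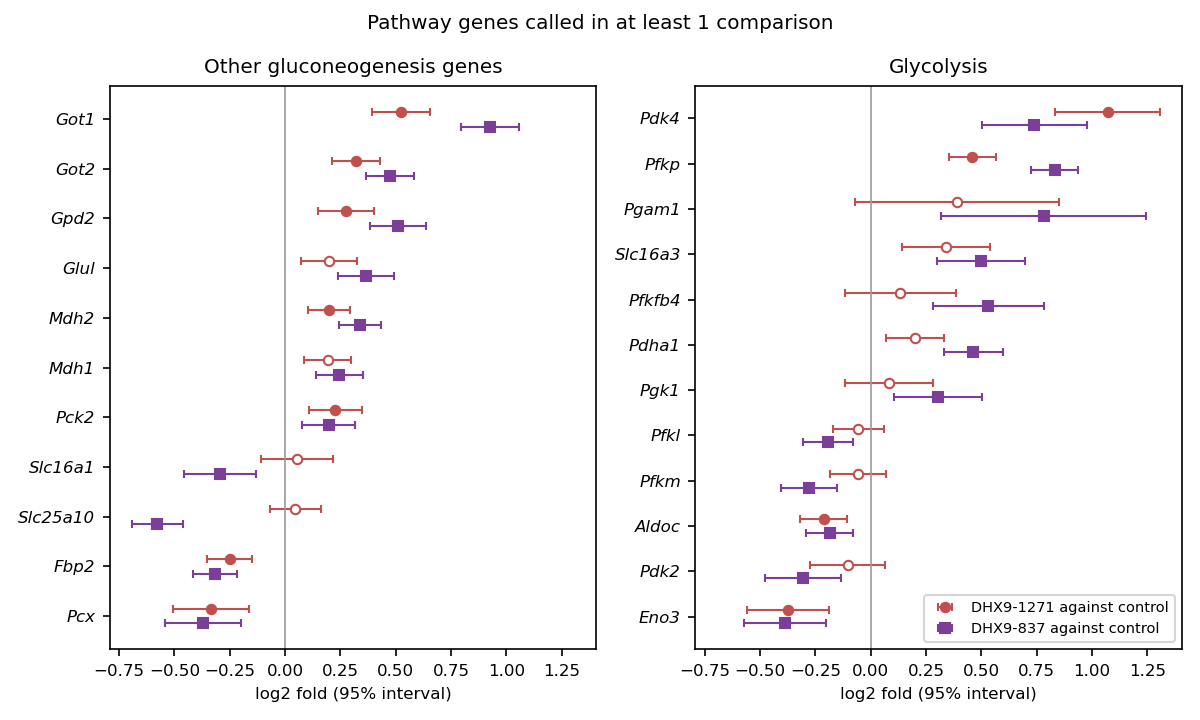
Log2 folds with 95% intervals for each hairpin against control, for genes of the gluconeogenesis and glycolysis lists called in at least 1 comparison; filled symbols have an adjusted p under 0.05. Got1 and Pfkp rise more with DHX9-837 (0.93 and 0.83) than with DHX9-1271 (0.52 and 0.46), and Fbp2, Pcx, Aldoc and Eno3 are lower with each.

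The glycolysis list, which also held regulators, pyruvate dehydrogenase genes and a lactate carrier gene, likewise split. In both hairpins together 4 of 20 were up and 2 down (median log2 fold -0.02), against 13.5% of all genes called. The platelet-type phosphofructokinase gene Pfkp (log2 fold 0.64, SE 0.0405, limma adjusted p = 8.17e-05), the pyruvate dehydrogenase kinase gene Pdk4 (0.90, SE 0.0901), the pyruvate dehydrogenase subunit gene Pdha1 (0.33) and the lactate carrier gene Slc16a3 (0.42) rose. Of these rises, only Pfkp is of an enzyme of glycolysis itself. The aldolase gene Aldoc (-0.20) and the enolase gene Eno3 (-0.38) fell. With DHX9-837 alone 7 rose and 5 fell, against 15.6% of all genes called, and with DHX9-1271 alone 2 rose and 2 fell, against 4.41%. Pfkp differed between the hairpins by 0.37 (limma adjusted p = 0.0113), a call that ended without DHX9-1271 replicate 1 (limma adjusted p = 0.0504) or replicate 3 (limma adjusted p = 0.0697).

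Other genes of sugar uptake showed no call. The list held carriers and disaccharidases outside the 9, along with the sweet taste receptor genes Tas1r2 and Tas1r3 and the protein kinase C gene Prkcb. Over all genes tested, 4.41% were called with DHX9-1271, 15.6% with DHX9-837, 13.5% with both hairpins and 1.90% between them. Of 20 tested in this list, 0 passed in any of the 4 comparisons by limma. The 4 of smallest p in both hairpins together were Prkcb (log2 fold 0.25, limma adjusted p = 0.0856), the SGLT family gene Slc5a4a (-0.20, limma adjusted p = 0.11), the GLUT1 gene Slc2a1 (0.17, limma adjusted p = 0.119) and the GLUT3 gene Slc2a3 (0.15, limma adjusted p = 0.222). At an unadjusted p under 0.05 the count was 2 with DHX9-1271, 3 with DHX9-837, 3 with both hairpins together and 2 between the hairpins. The share of all genes at that threshold is not given here. Of 10 tested genes of fructose and polyol breakdown, only the aldo-keto reductase gene Akr1b8 was called in both hairpins together (log2 fold 1.62, SE 0.157, limma adjusted p = 0.00069), against 13.5% of all genes, while Hk2 (0.26), Hk1 (0.11) and Glyctk (-0.20) were not.

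Of 32 tested regulators, 1 rose and 5 fell in both hairpins against control, with a median log2 fold of -0.03, against 13.5% of all genes called. FOXO3, PPAR-alpha and PPAR-delta are transcription factors of fasting and fat metabolism. Foxo3 fell by 0.47 (limma adjusted p = 0.00452), Ppara by 0.37 (limma adjusted p = 0.00485) and Ppard by 0.21 (limma adjusted p = 0.0136). Nr4a1, an immediate early nuclear receptor gene, fell by 0.85 (limma adjusted p = 0.00791) and the insulin receptor gene Insr by 0.24 (limma adjusted p = 0.0419). The Ppard call ended without control replicate 1 (limma adjusted p = 0.0537). The Insr call ended without any array but DHX9-837 replicate 2 or control replicate 2 (limma adjusted p = 0.0758 to 0.145). The clock repressor gene Nr1d1, known for repressing gluconeogenic genes in liver, rose by 1.47 (limma adjusted p = 0.00714). Its log2 fold was 2.12 with DHX9-1271 and 0.82 with DHX9-837. The DHX9-837 value alone was not called (limma adjusted p = 0.0957), nor was the difference between the hairpins (limma adjusted p = 0.0651). Of the regulators, 1 rose and 3 fell with DHX9-1271 alone, against 4.41% of all genes called. With DHX9-837 alone 0 rose and 6 fell, against 15.6%. Ppard (log2 fold -0.10, limma adjusted p = 0.295) and Insr (-0.16, limma adjusted p = 0.271) were not called with DHX9-1271 and were called lower with DHX9-837.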

How the data were processed

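Total RNA from the large intestine was measured on 9 Affymetrix Mouse Gene 2.0 ST arrays, 3 in each group. Per the submitters' processing notes, the authors made the deposited log2 values with RMA in oligo 1.30.0 under R 3.1.1, which corrects background, sets all arrays to 1 distribution and sums probes into probe sets. Such scaling hides a shift shared by all genes. The genome build behind the probe sets is not given in the sources used here.

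Of 24973 probe sets, 24015 had 1 gene symbol in the platform annotation and 958 were unnamed here. The probe set with the highest mean stood for a gene, which gave 24011 genes. Genes under the 30th percentile of mean level were left out, so 16808 were tested. A group-means model was fitted in limma 3.58.1 (R 4.3.3), with Benjamini-Hochberg adjustment over all genes tested, 6 residual and 2.84 prior degrees of freedom. Calls were made at an adjusted p below 0.05. The number of arrays limits the precision, and ties between at least 2 arrays affected 45.3% of the genes tested. The fit was first tested on simulated data. Correlations used exact permutation in numpy 2.4.6.

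The members and lists were chosen with earlier results of these data known. The text names every member, Dhx9, up to 4 genes a list by smallest p in both hairpins and up to 3 called between the hairpins, and the 5 genes most like Pck1 and Sis. Other called genes of the lists, such as Pck2 and Pcx, were named after their values were seen. Alternatives changed the level filter, the summary of probe sets, the scaling, the variance model and the arrays used.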

Additional observations from a re-analysis of the deposited data

Results flagged for a closer look

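Results in which the hairpins themselves differed, by the limma comparison of DHX9-837 with DHX9-1271, are given here as DHX9-837 minus DHX9-1271 on the log2 scale. Groups of 3 arrays are too small for the test of single outlying arrays. Among the sugar genes this held for Pck1 alone, at -0.82 (SE 0.1, limma adjusted p = 0.0103), while the Dhx9 level differed by -0.02. In the lists around gluconeogenesis and glycolysis it held for Got1 at 0.40 (limma adjusted p = 0.0162), Slc25a10 at -0.62 (limma adjusted p = 0.00194) and Pfkp at 0.37 (limma adjusted p = 0.0113). Among colon markers, Slc37a2 differed by -1.07 (limma adjusted p = 0.00194), Aqp8 by -0.67 (limma adjusted p = 0.0345), Ggh by -0.54 (limma adjusted p = 0.0196), Slc26a3 by -0.36 (limma adjusted p = 0.0196) and Mettl7b by -0.23 (limma adjusted p = 0.0407). Among adipocyte markers, Car3 differed by 1.70 (limma adjusted p = 0.0122), the resistin gene Retn by 1.04 (limma adjusted p = 0.0312) and the lipoprotein lipase gene Lpl by 0.46 (limma adjusted p = 0.048). Among absorptive epithelium markers, Krt18 differed by 0.34 (limma adjusted p = 0.0312).

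Several of these calls rested on all 6 hairpin arrays. Lpl, Retn, Krt18 and Mettl7b were not called without any 1 of them (limma adjusted p = 0.107 to 0.161, 0.0755 to 0.0997, 0.075 to 0.115 and 0.0828 to 0.164), and Lpl and Retn also not without control replicate 3 (limma adjusted p = 0.0672 and 0.0541). Ggh and Slc26a3 were not called without any 1 of them but DHX9-837 replicate 2 (limma adjusted p = 0.0588 to 0.0923 and 0.0502 to 0.101). Car3 was not called without DHX9-1271 replicate 3 (limma adjusted p = 0.0697), as for Pck1 (limma adjusted p = 0.0615). Got1 was not called without any 1 of the DHX9-1271 arrays or DHX9-837 replicate 1 (limma adjusted p = 0.0575 to 0.0856), nor Pfkp without DHX9-1271 replicate 1 or 3 (limma adjusted p = 0.0504 and 0.0697). Slc25a10 and Slc37a2 were called in every fit that left out 1 array. No such fits are given here for Aqp8. Other settings ended calls as well. With the small intestine marker mean as a covariate those of Pfkp, Car3, Ggh, Slc26a3, Krt18, Retn, Mettl7b and Lpl ended (limma adjusted p = 0.0605 to 0.214), with the replicate block those of Retn, Slc26a3, Krt18, Lpl and Mettl7b (limma adjusted p = 0.054 to 0.0911), and with no level filter those of Retn, Krt18, Mettl7b and Lpl (limma adjusted p = 0.0575 to 0.0875).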

How the results depend on the processing

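Pck1 was called in every comparison under every alternative but one: between the hairpins the call was lost without DHX9-1271 replicate 3 (log2 fold -0.81, limma adjusted p = 0.0615). Leaving out 1 array at a time gave Pck1 log2 folds of -0.79 to -0.66 with DHX9-1271, -1.65 to -1.48 with DHX9-837, -1.20 to -1.07 with both hairpins and -0.91 to -0.75 between them. The count of members called then ran from 1 to 1 with DHX9-1271, 1 to 3 with DHX9-837, 1 to 2 with both hairpins and 0 to 1 between them. Khk (both times) and Slc2a5 joined without DHX9-837 replicate 3. With the replicate block, the count stayed at 1 in each comparison, and the limma adjusted p for Pck1 was 0.0252, 0.000914, 0.00181 and 0.033 in that order. Same-numbered arrays correlated at -0.366 to 0.261 in 9 pairs, against -0.445 to 0.391 in 18 other pairs, so the numbers were not read as pairing. Uncalled log2 folds changed sign with the small intestine marker mean as a covariate for Slc5a1 (0.0122 with DHX9-1271, -0.0157 with DHX9-837, -0.0279 between hairpins), Sis (0.63 with DHX9-1271, -0.39 between hairpins) and Treh (-0.13 between hairpins), and with array weights for Sis (-0.31 with both hairpins). With group means taken out, the marker correlation was 0.912 for Pck1, -0.116 for Fbp1 and 0.285 for Slc2a5. Leaving out 1 array turned signs, over ranges of -0.21 to 0.0556 for Slc2a2 and -0.12 to 0.24 for Slc5a1 and -0.28 to 0.12 for Treh with DHX9-837. With both hairpins the ranges were -0.24 to 0.0226 for Slc2a2, -0.15 to 0.0308 for Slc5a1, -1.06 to 1.03 for Sis, -0.19 to 0.0205 for Aqp2 and -0.17 to 0.23 for Umod, and between hairpins -0.14 to 0.045 for Khk. Among list genes, calls with both hairpins ended for Insr with no level filter (limma adjusted p = 0.0708), arrays centred on their median (limma adjusted p = 0.0516), array weights (limma adjusted p = 0.0755) or the replicate block (limma adjusted p = 0.0806). They ended for Fabp2 with no filter (limma adjusted p = 0.0696), cyclic loess (limma adjusted p = 0.0551) or the block (limma adjusted p = 0.0606). Between the hairpins, the covariate ended the calls of Pfkp (limma adjusted p = 0.0605), Car3 (0.0733), Ggh (0.0943), Slc26a3 (0.112), Krt18 (0.144), Retn (0.157), Mettl7b (0.187) and Lpl (0.214). The replicate block ended those of Retn (0.054), Slc26a3 (0.054), Krt18 (0.0617), Lpl (0.0649) and Mettl7b (0.0911), no level filter those of Retn (0.0575), Krt18 (0.0648), Mettl7b (0.0873) and Lpl (0.0875), and median centring those of Lpl (0.0591) and Mettl7b (0.0598), all values being limma adjusted p. Over all genes, the count of 741 called with DHX9-1271 was 408 with no filter, 336 on the arrays compared alone, 407 with the replicate block and 128 to 714 without 1 array. The 2618 with DHX9-837 were 1674 on the arrays compared alone and 1853 to 2516 without 1 array, and the 2263 with both hairpins were 1363 to 2066. The 320 between hairpins were 140 with no filter, 493 with a filter at the median gene, 541 with a variance trend, 719 with array weights, 168 with the block, 61 with the covariate and 28 to 360 without 1 array. With cyclic loess the split with DHX9-1271 was 422 up and 366 down, against 475 and 266. The causes were not tested. Levels near the filter (G6pc, Fbp1, Slc2a2, Slc2a5, Treh) limit what could be detected for those genes.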
